A study of Mus musculus with 9 samples.

Results

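The mitochondrial ribosomal proteins were followed on single-colour bead arrays of mouse brain. Members were all probes whose identifier carries the NCBI gene number of a gene with symbol Mrpl (large subunit) or Mrps (small subunit) followed by a digit, 1 gene left aside. This rule gave 34 genes, read by 39 probes, of 8127 genes that could be named in this way and 46116 probes in all. The arrays came from 4 mice titled knockout for CAIX (the carbonic anhydrase encoded by Car9) and 5 mice titled wild type. All 9 mice were C57BL/6, 8 months old, and the labels name no cell type, allele design, sex or litter. The design text counts mice, but the labels do not tie each array to an animal, so p-values measure only the spread between these samples.

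The mitoribosome is the ribosome inside mitochondria. It makes the few proteins encoded by mitochondrial DNA, which are core subunits of the respiratory chain and of the ATP synthase. Its RNAs come from mitochondrial DNA, while all of its proteins are encoded in the nucleus, made in the cytosol and imported. Some of these proteins have bacterial counterparts and others are specific to mitochondria. Neurons depend heavily on respiration, and inherited faults in several of these genes cause disease of brain and heart in humans.

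The group labels conflict. For 6 of the 9 samples the title gives the other genotype than the characteristic does, and the deposited tables place 4 arrays under different samples. Groups below follow the titles through the header of the non-normalized table. Knockout 1, wild type 1 and wild type 2 were the arrays with high Xist, at 10.89 in the knockout array and 10.46 and 10.47 in the wild-type ones, against 6.83 to 6.93 elsewhere. Eif2s3y ran the other way, at 6.79 to 6.87 on these arrays against 7.44 to 8.08 elsewhere. Knockout 4 stood apart, with a median signal of 133.2 against 182 to 190.5 in the other knockout arrays and 167 to 209.8 in the wild type. Markers of brain were measured in part. The neuronal genes Nefm, Rbfox3, Slc17a7 and Syt1 and the 6 oligodendrocyte genes with a probe were above background on all 9 arrays. The probes of Nefl, Snap25 and Gfap, defining genes of neurons and astrocytes, did not pass the detection filter.

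Most of the module was detectable in the brain. Of the 39 probes, 32 for 31 genes passed the filter of being above background (detection p under 0.05) on 4 or more arrays, and all 32 were above background on all 9. Of all 46116 probes 16375 passed the filter, and 76.5% of those were above background on all 9. Signals of the 32 ran from 236.7 to 5258.4 on the scanner's linear scale. The other 7 probes lay outside the filter. Mrpl35 was nearest to it, above background on knockout 3, knockout 4 and wild type 4 only, with levels of 6.88 to 7.001 in the knockout and 6.87 to 6.95 in the wild type. No member lay just inside the filter. Levels here and below are background-corrected, quantile-normalized log2 signals.

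For 3 genes no probe passed. They were Mrpl32, a large-subunit protein, Mrpl35, and Mrps36, which is now known as a subunit of the oxoglutarate dehydrogenase complex. Mrpl32 and Mrps36 were above background on 0 arrays. A second probe of Mrpl19, Mrps10 and Mrps18c was above background on 0 arrays as well, and that of Mrpl51 on knockout 1 alone. The first probe of each of these 4 genes was above background on every array. What separates the probes of a gene is not given in the sources used here, and these second probes show no lack of the transcript.

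No member passed the test between knockout and wild type. With limma over all 16375 probes and Benjamini-Hochberg adjustment, 0 of 32 member probes had an adjusted p under 0.05, where 4 of all probes did (0.0244%). The adjusted p of the members ran from 0.393 to 0.994. At an unadjusted p under 0.05 there were 2 members, both with higher means in the knockout, of 32, while 11.5% of all probes reached that level. No member had every knockout array above every wild-type array, or every one below, against 1.91% and 1.78% of all probes. The median log2 difference, knockout minus wild type, was 0.015 over the 32 members and -0.00035 over all probes. In bulk tissue fewer cells of a type and less RNA per cell cannot be told apart.

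With groups by title and after quantile normalization, the intervals limit how large a difference of a single probe could have gone unseen. They do not cover another reading of the labels or another scaling. Differences ran from -0.19 to 0.18 on the log2 scale with standard errors of 0.050 to 0.18. The 95% intervals of 30 members included 0. For 31 of 32 members the whole interval lay within 0.5 of 0, and over all members the limits ran from -0.46 to 0.50, a ratio of 0.728 to 1.42. Of all probes, 14.1% differed by more than 0.2, and of the members 0 did. That count depends on the arrays and the scaling, and was 3 without knockout 1 (18.6% of all probes), 1 without knockout 4 (14.8%) and 2 with median scaling (16.2%). The large subunit had 10 higher and 7 lower means in the knockout among 17 probes, with a median of 0.014. The small subunit had 8 and 7 among 15, with a median of 0.024. The plot of differences with their intervals shows both subunits spread around 0.

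**Figure D1:**
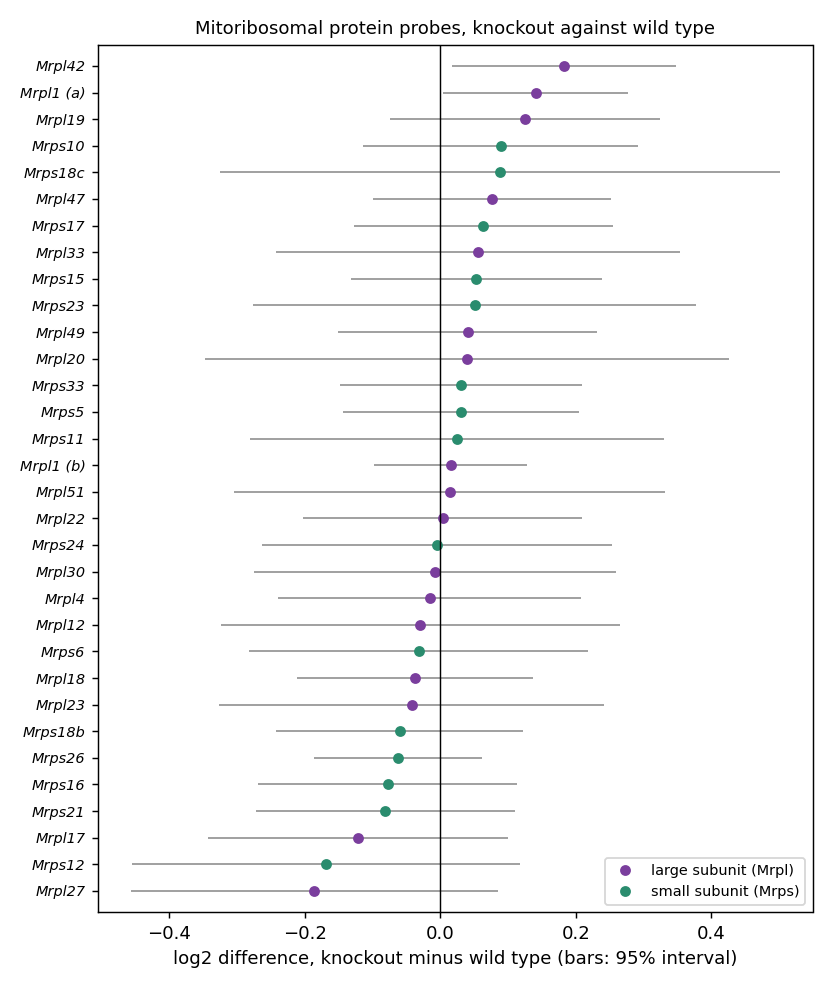
Log2 difference between knockout and wild type (horizontal axis, knockout minus wild type) for the 32 probes, from limma, with 95% intervals as bars (n = 4 and 5). Mrpl1 (a) and (b) are the 2 probes of that gene. Points lie between -0.19 and 0.18, and the intervals of 30 probes include 0.

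Mrpl42, a large-subunit protein specific to mitochondria, had the smallest p. Its level was 9.29, 9.45, 9.45 and 9.41 on knockout 1 to 4, against 9.36, 9.34, 9.15, 9.02 and 9.21 on wild type 1 to 5. Knockout 2, 3 and 4 lay above every wild-type array, and knockout 1 lay below wild type 1 and 2. The difference was 0.18 (SE 0.074, limma, adjusted p = 0.393).

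Mrpl1, a protein of the mobile stalk beside the tRNA exit site, came next and was read by 2 probes. Probe scl0094061.1_118-S had 7.51, 7.56, 7.49 and 7.62 in knockout 1 to 4, against 7.33, 7.40, 7.28, 7.57 and 7.44 in wild type 1 to 5. Its difference was 0.14 (SE 0.061, adjusted p = 0.421), and wild type 4 was higher than 3 of the knockout arrays. Probe scl094061.9_0-S had 7.21, 7.09, 7.05 and 7.19 in the knockout, against 7.06, 7.10, 7.08, 7.16 and 7.21 in the wild type. There the groups overlapped throughout, and the difference was 0.016 (SE 0.050, adjusted p = 0.948). The difference between the probes was not tested.

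Mrpl27, the counterpart of a bacterial protein next to the peptidyl transferase centre, had a lower mean in the knockout. Its level was 8.99, 8.79, 8.95 and 8.45 in knockout 1 to 4, against 9.24, 8.86, 8.84, 8.98 and 8.99 in wild type 1 to 5. The difference of -0.19 (SE 0.12, adjusted p = 0.615) became -0.071 without knockout 4. Mrpl19, a large-subunit protein with a bacterial counterpart, had 8.17, 7.87, 7.88 and 7.73 in the knockout, against 7.85, 7.77, 7.92, 7.66 and 7.73 in the wild type. Its difference was 0.13 (SE 0.089, adjusted p = 0.654), and 0.039 without knockout 1, the highest array. Mrpl17, also with a bacterial counterpart, had 10.98, 10.64, 10.65 and 11.01 in the knockout, against 11.04, 11.07, 10.93, 10.77 and 10.92 in the wild type, a difference of -0.12 (SE 0.098, adjusted p = 0.708), and -0.061 without knockout 2 or -0.18 without knockout 4. Knockout 2 and 3 were below every wild-type array for this gene, while knockout 1 and 4 lay among them.

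Among small-subunit genes the smallest p belonged to Mrps12, whose protein sits at the decoding centre and whose bacterial counterpart is a target of streptomycin resistance mutations. It had 10.87, 10.54, 10.39 and 11.06 in knockout 1 to 4, against 10.82, 10.97, 10.98, 10.81 and 10.83 in wild type 1 to 5. The difference was -0.17 (SE 0.13, adjusted p = 0.680), with knockout 2 and 3 below and knockout 4 above every wild-type array. It was -0.28 without knockout 4 and -0.060 without knockout 3. Mrps26, a protein specific to mitochondria, had 7.40, 7.30, 7.21 and 7.19 in the knockout, against 7.36, 7.41, 7.24, 7.31 and 7.37 in the wild type. Its difference was -0.062 (SE 0.055, adjusted p = 0.736), -0.10 without knockout 1 and -0.034 without knockout 4, and the groups overlapped. Mrps10, a protein of the small-subunit head, had 9.65, 9.60, 9.39 and 9.91 in the knockout, against 9.52, 9.64, 9.50, 9.56 and 9.54 in the wild type. Its difference was 0.089 (SE 0.090, adjusted p = 0.778), and -0.0019 without knockout 4, the highest array.

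The remaining members stayed closer to 0 relative to their error, with adjusted p of 0.779 to 0.994. In the small subunit, genes of the body and platform were Mrps6 (-0.032), Mrps11 (0.024), Mrps15 (0.053), Mrps16 (-0.078), Mrps17 (0.064), Mrps18c (0.089) and Mrps21 (-0.081). Mrps5 (0.030) and Mrps24 (-0.0050) encode proteins by the path of the mRNA. The mitochondria-specific Mrps23 (0.051), Mrps33 (0.031) and Mrps18b (-0.060) showed no common direction. In the large subunit, Mrpl4 (-0.016), Mrpl22 (0.0036), Mrpl23 (-0.042) and Mrpl47 (0.077) lie around the exit tunnel, and Mrpl12 (-0.030) forms the stalk that recruits translation factors. Mrpl18 (-0.037), Mrpl20 (0.040), Mrpl30 (-0.0076) and Mrpl33 (0.056) have bacterial counterparts, while Mrpl49 (0.040) and Mrpl51 (0.014) are specific to mitochondria. Each value is a log2 difference, knockout minus wild type.

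No reading of the conflicting labels gave a member past the threshold. Median log2 differences over the 32 members were 0.015 by title, -0.015 by genotype characteristic, -0.056 by title through the processed table and 0.048 by characteristic through it. Under each of these 4 readings 0 members passed the threshold (limma). Of all 16375 probes 4, 0, 0 and 0 passed it, in the same order, so these counts show nothing particular to the members. Before adjustment, the p of 2, 1, 2 and 0 members fell below 0.05, in the same order. The shares of all 16375 probes that did so were 11.5%, 4.09%, 3.76% and 2.39%. Which reading is right is not given in the sources used here.

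After quantile normalization single arrays differed more than the group means did. The mean of the 32 members, relative to all 9 arrays, was 0.053, -0.096, -0.14 and 0.20 on knockout 1 to 4, against 0.040, 0.019, -0.023, -0.076 and 0.025 on wild type 1 to 5. The highest array and the 2 lowest were thus all knockout, and the wild-type arrays lay between them. With median scaling the order was another, at 0.037, 0.040, 0.025 and 0.075 on knockout 1 to 4, against -0.0031, -0.036, -0.13, 0.012 and -0.021 on wild type 1 to 5. There every knockout array lay above every wild-type array, the median log2 difference was 0.084 over the members and 0.027 over all probes, and 0 members passed the threshold (limma). On knockout 4, 26 of 32 members were above their own mean over the arrays, and 17 had their highest level there. On knockout 3, 27 of 32 were below it, and 14 had their lowest level there. The matching shares of all probes on these arrays were not computed. The heat map of members by array shows these columns.

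**Figure D2:**
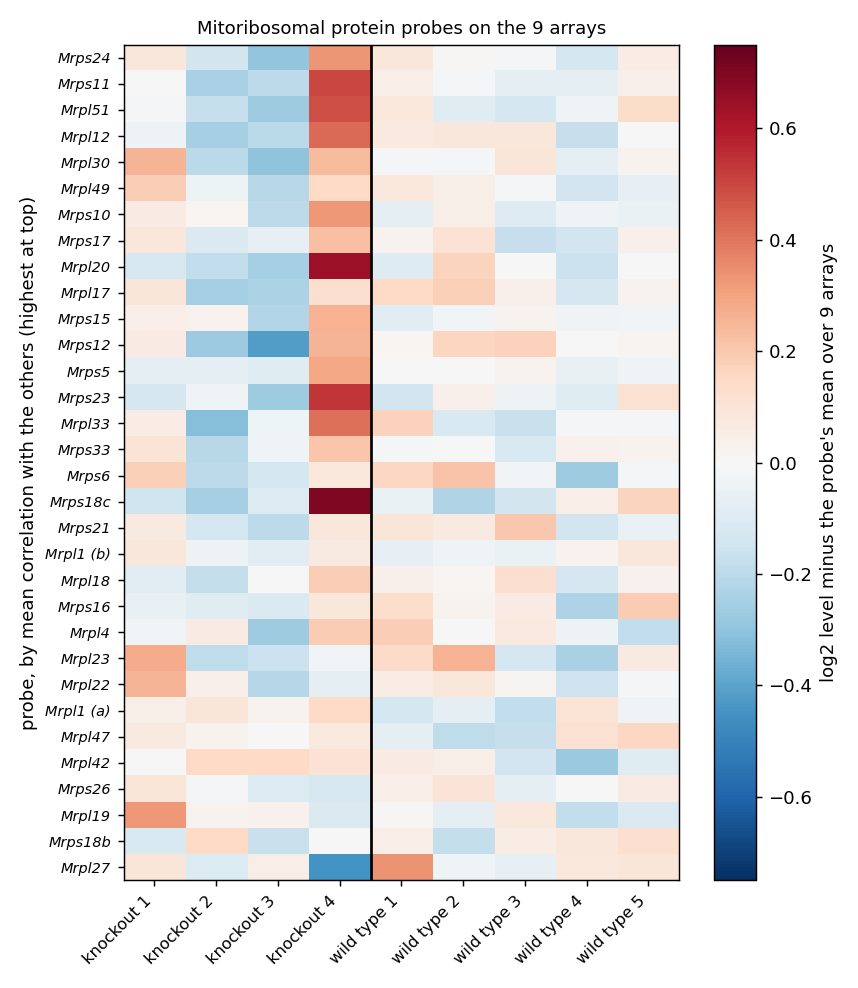
Level of each of the 32 probes (rows, log2, relative to the probe's own mean over the arrays) on the 9 arrays (columns, knockout left of wild type). After quantile normalization knockout 4 is high for 26 of 32 probes and knockout 3 low for 27 (20 and 18 with median scaling), while Mrpl27 runs the other way on knockout 4.

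After quantile normalization members varied more between knockout arrays than between wild-type arrays. The median standard deviation of a member was 0.19 over the knockout arrays and 0.11 over the wild-type arrays, and 27 of 32 members (84.4%) varied more in the knockout. Over all probes the medians were 0.11 and 0.087, and 64.1% varied more in the knockout. Without knockout 4 the members' median was 0.13 in the knockout, and 21 of 32 (65.6%) varied more there, against a median of 0.085 and a share of 50.6% over all probes. Of 65 cytosolic ribosomal and 43 respiratory chain genes, 89.2% and 86.0% varied more in the knockout, and 52.3% and 53.5% without knockout 4. The larger spread with all arrays was thus not particular to the mitoribosome. No test was run on these spreads.

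Knockout 4 held the largest single deviations. Mrps18c, a small-subunit protein with a bacterial counterpart, had 9.94, 9.84, 9.99 and 10.79 on knockout 1 to 4, against 10.04, 9.87, 9.96, 10.14 and 10.26 on wild type 1 to 5. Mrpl20, needed in bacteria to build the large subunit, had 11.29, 11.23, 11.16 and 12.06 in the knockout, against 11.32, 11.58, 11.42, 11.25 and 11.41 in the wild type. For both genes knockout 4 was above all other arrays, and the other knockout arrays lay below the wild-type mean. These genes are named here after their values were seen. Their differences, 0.089 and 0.040, became -0.13 and -0.17 without knockout 4.

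In the deposited signals, before any normalization, Mrpl20 read 2494.8, 2500.4, 2444 and 5258.4 on knockout 1 to 4, against 2662, 3211.1, 3345.3, 2716.5 and 2987.9 on wild type 1 to 5. On knockout 4, 21 of 32 members had their highest signal. That array had the lowest median signal over all probes, most of which were not above background. It also had the most probes above background, 17325 against 14895 to 16973 on the other arrays. The share of all probes with their highest or lowest signal on an array was not computed. On knockout 3, 12 of 32 had their lowest.

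Other genes of protein synthesis and respiration moved over the quantile-normalized arrays in a like way. On knockout 1 to 4 the mean of 65 cytosolic ribosomal protein genes was -0.026, -0.089, -0.11 and 0.24, against 0.012, -0.0081, -0.063, -0.035 and 0.083 on wild type 1 to 5. The mean of 43 nuclear-encoded respiratory chain genes was -0.018, -0.081, -0.16 and 0.25 in the knockout, against 0.0071, 0.017, 0.010, -0.055 and 0.032 in the wild type. Knockout 4 was the highest array and knockout 3 the lowest for both lists, as for the mitoribosome under this normalization. The lists were not computed with median scaling. There the mean of the mitoribosome members was 0.075 on knockout 4 and 0.025 on knockout 3, and lowest on wild type 3, at -0.13. Knockout 1 was above 0 for the mitoribosome and below 0 for the others, a difference that was not tested. Median log2 differences between knockout and wild type were 0.0078 and -0.016 for these lists.

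**Figure D3:**
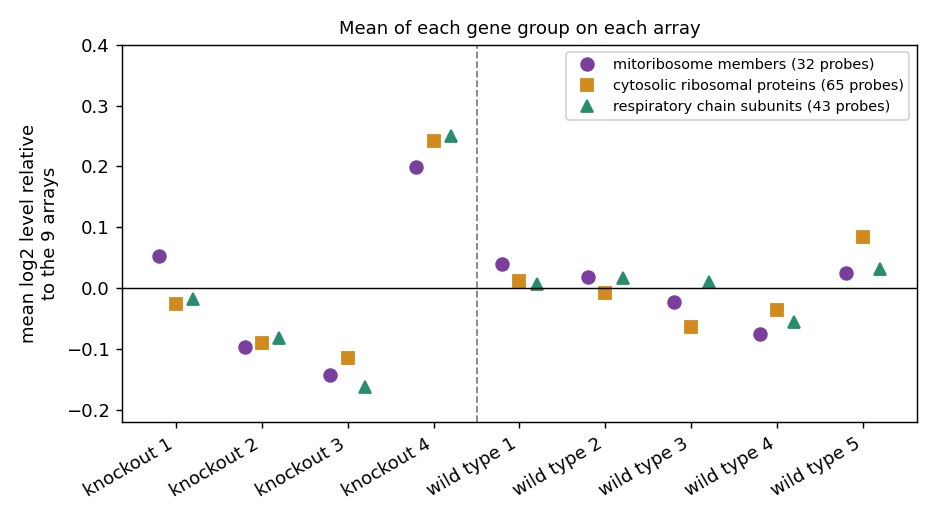
Mean log2 level of 3 gene groups on each array after quantile normalization, relative to the 9 arrays (vertical axis), with knockout arrays left of the dashed line and wild type right. Knockout 4 lies at 0.20, 0.24 and 0.25, above all other arrays, and knockout 3 is the lowest for each group.

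Of the cell-type lists, those of oligodendrocytes, neurons and astrocytes were lowest on knockout 4. On knockout 4 the mean of the oligodendrocyte list (6 of 9 genes measured) was -0.49, with a range of -0.49 to -0.059 over the knockout and -0.16 to 0.43 over the wild type. The neuron list (4 of 9) stood at -0.29 there, with -0.29 to 0.17 over the knockout and -0.077 to 0.25 over the wild type. Its genes differed in spread, with an SD over the knockout arrays of 0.13 for Syt1 and 0.78 for Nefm. The astrocyte list (4 of 8) stood at -0.30, with -0.30 to 0.11 over the knockout and -0.048 to 0.20 over the wild type. Microglia (3 of 7) and endothelium (2 of 4) stood at -0.022 and 0.071. Blood (2 of 5) stood at -0.030, with -0.11 to 0.52 over the knockout and -0.47 to 0.036 over the wild type. For the choroid plexus 1 of 4 genes was measured, Clic6. It stood at -0.72, with -0.99 to 1.33 over the knockout and -0.54 to 0.82 over the wild type. The part of cell types in the array pattern was not tested.

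After quantile normalization members varied together over the arrays. Over the 496 pairs of member probes the median Pearson correlation over the 9 arrays was 0.39, and 77.0% of pairs were above 0. Over all pairs of the 16375 probes the median was -0.0018 and 49.8% were above 0. With group means removed the medians were 0.43 and -0.0010, and without knockout 4 they were 0.33 and -0.00079. The correlations share the same 9 arrays and their overall signal and are given as a description. Scaling mattered for them. With median scaling in place of quantile normalization the median was 0.16 over member pairs and 0.17 over all pairs, so that the members no longer stood above the rest, and the mean of the members was 0.075 on knockout 4 and 0.025 on knockout 3.

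**Figure D4:**
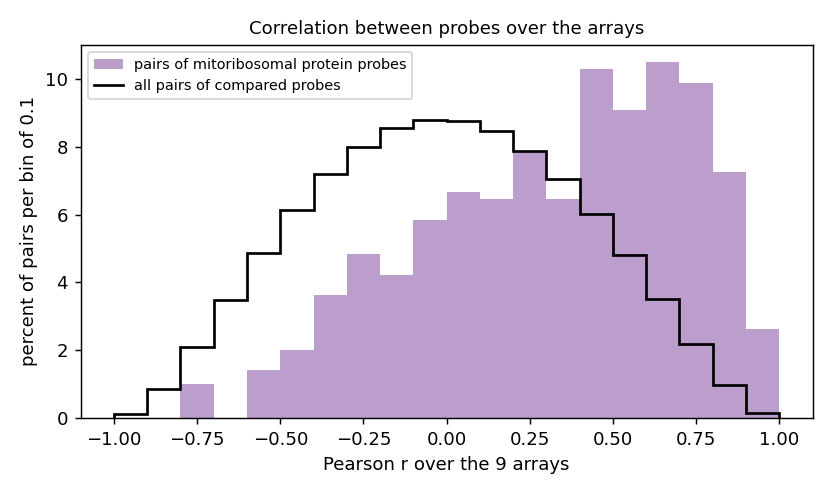
Share of pairs (vertical axis, percent per bin of 0.1) by Pearson correlation over the 9 arrays, after quantile normalization, for 496 pairs of member probes (filled) and all pairs of the 16375 compared probes (line). The filled distribution has its median at 0.39 and the line at -0.0018.

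Correlations were described for each subunit. The median correlation was 0.49 over 105 pairs of Mrps probes, 0.24 over 136 pairs of Mrpl probes and 0.41 between the subunits. No test was run on that order. Pairs within the cytosolic ribosomal list had a median of 0.59, and members with that list 0.47. Members with the respiratory chain list had a median of 0.41, close to the 0.38 within that list. The closest pair was Mrpl51 and Mrps11 (r = 0.96), followed by Mrps5 and Mrpl20 (r = 0.96), each a pair across the subunits.

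Mrps24 and Mrps11 had the highest mean correlation with the other members, 0.57 and 0.52. Mrps24, a protein at the mRNA entry channel, had 11.53, 11.31, 11.15 and 11.78 on knockout 1 to 4, against 11.53, 11.46, 11.43, 11.31 and 11.50 on wild type 1 to 5. Mrps11, a platform protein by the mRNA exit, had 7.80, 7.56, 7.61 and 8.30 in the knockout, against 7.85, 7.80, 7.74, 7.74 and 7.84 in the wild type. Both were highest on knockout 4 and lowest on knockout 2 or 3.

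Mrpl27 and Mrps18b stood at the other end, with mean correlations of -0.27 and -0.049. Mrpl27, given above, was lowest on knockout 4 and highest on wild type 1, and correlated with Mrps23 at r = -0.79. Mrps18b, a small-subunit protein related to Mrps18c, had 7.52, 7.78, 7.47 and 7.63 in the knockout, against 7.68, 7.45, 7.69, 7.72 and 7.76 in the wild type. It did not share the high value of knockout 4 and was lowest on wild type 2.

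Promoter sequence was compared because the members varied together after quantile normalization. With median scaling their median correlation was 0.16, against 0.17 over all pairs. RefSeq promoter windows of build GRCm38.p6, 250 bases before to 50 after the start, were found for 32 of the 34 genes. Letters of 5 motifs were sought on both strands. An ETS motif (CCGGAAG), the core bound by factors such as GABP, was in 14 of 32 member genes (43.8%), against 12.9% of 17492 protein-coding genes. An NRF1 core (TGCGCA) was in 10 (31.3%), against 10.999%. A YY1 motif (AAGATGG) was in 7 (21.9%), against 7.18%. An Sp1 motif (GGGCGG) was in 21 (65.6%), against 49.2%. An E-box (CACGTG) was in 2 (6.25%), against 8.91%. GABP, NRF1 and YY1 are known as activators of nuclear genes for mitochondrial proteins. Of all 32851 windows, noncoding genes included, 8.86%, 7.76%, 6.34%, 35.7% and 7.15% held these motifs in the same order. Median GC content was 58.3% in member windows and 56.3% in coding ones. A match is a description of the letters and shows no binding.

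The windows of the 2 most and the 2 least correlated members are shown to set the promoters beside the array pattern. They run 5′ to 3′ on the gene's strand, and capitals mark matches to the 5 motifs on either strand.
Mrps24, chr11:5707652-5707951, minus strand: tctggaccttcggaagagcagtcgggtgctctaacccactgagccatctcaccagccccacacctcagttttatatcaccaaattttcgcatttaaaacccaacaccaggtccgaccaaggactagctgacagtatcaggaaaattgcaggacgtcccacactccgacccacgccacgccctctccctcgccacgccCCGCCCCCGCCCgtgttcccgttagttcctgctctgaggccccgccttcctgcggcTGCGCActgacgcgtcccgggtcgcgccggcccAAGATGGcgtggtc
Mrps11, chr7:78782881-78783180, plus strand: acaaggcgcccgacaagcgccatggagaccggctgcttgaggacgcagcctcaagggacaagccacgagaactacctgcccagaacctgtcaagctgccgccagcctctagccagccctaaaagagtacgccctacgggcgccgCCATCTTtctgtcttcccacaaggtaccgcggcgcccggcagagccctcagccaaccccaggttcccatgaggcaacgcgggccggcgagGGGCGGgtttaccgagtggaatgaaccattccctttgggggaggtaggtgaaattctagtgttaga
Mrpl27, chr11:94653541-94653840, plus strand: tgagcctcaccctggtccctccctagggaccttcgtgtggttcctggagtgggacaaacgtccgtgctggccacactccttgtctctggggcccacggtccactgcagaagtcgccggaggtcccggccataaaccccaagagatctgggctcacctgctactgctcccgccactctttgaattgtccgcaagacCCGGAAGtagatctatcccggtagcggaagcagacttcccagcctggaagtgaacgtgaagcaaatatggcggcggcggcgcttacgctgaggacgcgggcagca
Mrps18b, chr17:35916391-35916690, minus strand: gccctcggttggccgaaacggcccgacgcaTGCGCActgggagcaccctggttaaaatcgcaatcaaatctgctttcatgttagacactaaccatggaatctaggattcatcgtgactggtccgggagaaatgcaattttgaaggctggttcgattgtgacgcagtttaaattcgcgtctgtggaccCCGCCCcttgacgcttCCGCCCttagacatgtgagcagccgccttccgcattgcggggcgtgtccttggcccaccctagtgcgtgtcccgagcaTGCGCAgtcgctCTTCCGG
The Mrps24 window holds the NRF1 core, the YY1 motif at its end and Sp1 motifs. The Mrps11 window holds the YY1 and Sp1 letters. The Mrpl27 window holds the ETS motif alone, and that of Mrps18b the ETS, NRF1 and Sp1 letters. The members with high and low correlation cannot be compared by motif from 4 windows.

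The rest of the mitochondrial translation machinery was measured in part, where a gene counts as measured if a probe passed the detection filter. More genes had a probe, namely 1, 8, 7, 9, 9 and 7 in the lists, in the order given here and in the next paragraph. Of 27 genes measured over 6 lists, 0 passed over all probes in either direction (limma), and 1 had an unadjusted p under 0.05, where 11.5% of all probes did. Dap3, a small-subunit protein without the Mrps name, differed by 0.064 (SE 0.061, adjusted p = 0.761) and was the 1 gene measured of 5 listed. Of 15 translation factors and membrane insertion genes 6 were measured, 3 with higher and 3 with lower means in the knockout, with a median of 0.011. They included the recycling factor Gfm2 (0.088), the formyltransferase of the initiator tRNA Mtfmt (0.031) and the initiation factor Mtif3 (-0.032). Of 27 assembly genes 5 were measured, 1 higher and 4 lower, with a median of -0.021. The GTPases Mtg2 (-0.059) and Gtpbp10 (-0.021) and the pseudouridine synthase Trub2 (0.013) had the smallest p.

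Of 22 mitochondrial tRNA synthetases and charging genes 7 were measured, with a median of 0.0048. Iars2, which charges mitochondrial isoleucine tRNA, had the smallest p of the machinery. Its level was 8.84, 9.003, 8.99 and 9.13 on knockout 1 to 4, against 8.79, 8.75, 8.80, 8.65 and 8.64 on wild type 1 to 5. Every knockout array lay above every wild-type array, as for 1.91% of all probes, and the difference was 0.27 (SE 0.064, adjusted p = 0.204). Vars2, which charges the valine tRNA, had a difference of -0.084. Of 26 genes of mitochondrial transcription and RNA handling 6 were measured, 5 with higher and 1 with a lower mean, with a median of 0.12. Fastkd5, needed to process mitochondrial RNA (-0.21), the poly(A) polymerase Mtpap (0.12) and Mterf1b, of the family of mitochondrial transcription terminators (0.16), had the smallest p, and adjusted p were 0.551 or more. Of 11 regulators of mitochondrial biogenesis 2 were measured, the coactivator Ppargc1b (-0.18, adjusted p = 0.527) and the GABP subunit Gabpb1 (0.0086).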

How the data were processed

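Brain RNA of 9 mice was hybridised to Illumina bead arrays after biotin labelling, per the labels' protocols. The authors deposited linear signal intensity values without normalization, per the file headers, and beside each a fraction called a detection p-value. That fraction rose with the signal (rank correlation at least 0.992 on each array), so 1 minus it was used as the detection p. They also deposited processed log2 values, with a median of 7.52 in each column. How those were made is not given in the sources used here, nor is any slide or software.

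From the 46120 rows, 4 bacterial controls were left out. Signals were corrected and normalized with neqc (normexp, quantile, offset 16) of limma 3.58.1 in R 4.3.3. On each array 14895 to 17325 probes exceeded background, and arrays correlated at 0.975 to 0.994 over the 16375 probes kept. The number of arrays limits the precision. Knockout and wild type were compared with lmFit and eBayes, two-sided, with Benjamini-Hochberg adjustment over all kept probes at 0.05. Lists other than the members used 1 probe a gene, that of highest mean. Gene names come from a RefSeq table of GRCm38.p6 through the number in the probe identifier, a reading inferred from the identifiers. Per-array values are given for the 8 members of smallest p, genes with 2 kept probes and those of extreme correlation. Members and lists were chosen with earlier results of these data known. Alternatives were other label readings, filters, normalizations, weights, priors, covariates and left-out arrays. Figures were drawn with matplotlib 3.10.9.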

Additional observations from a re-analysis of the deposited data

Results flagged for a closer look

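In 66 groups of 4 or 5 arrays, for the 32 member probes and their mean, 4 held an array far from the others of its group by Dixon's criterion. Chance gives about 1 in 20 for independent groups, and these share the same 9 arrays. On knockout 4 Mrps5 was at 9.79 where the nearest knockout array was at 9.44, Mrpl20 at 12.06 where the nearest was at 11.29, and Mrps18c at 10.79 where the nearest was at 9.99. On wild type 2 Mrps18b was at 7.45 where the nearest wild-type array was at 7.68.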

How the results depend on the processing

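In all 25 alternatives run 0 members passed the threshold (limma, smallest adjusted p 0.202 without wild type 4). Members with an unadjusted p under 0.05 numbered 2, and 1 by genotype characteristic, with both labels in one fit, with detection on all 9 arrays, with detection p under 0.01 or with the replicate block. They numbered 0 by characteristic through the processed table, without background correction, with the processed values or with the mean-dependent prior, 4 with median scaling, and 0 to 2 when an array was left out. Of all probes 11.5% reached that level, and 4.09% by genotype characteristic and 2.39% by characteristic through the processed table. The share was 10.2% with median scaling, 8.6% to 14.9% when an array was left out, and 10.1% to 12.9% in the other settings just named. All probes called numbered 4, and 0 under each of the other 3 label readings or with detection on all arrays, 11 without background correction, 2 with median scaling, 13 with the processed values, 7 with the mean-dependent prior, 1 with the replicate block, and 2 (without wild type 1, 2, 3 or 5) to 48 (without knockout 1) when an array was left out. Without knockout 3 there were 7.

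The members' median log2 difference ran from -0.071 without knockout 4 to 0.084 with median scaling, where that over all probes was 0.027, so its sign depends on the setting. Without knockout 4, 6 members had higher and 26 lower means in the knockout, and with median scaling 26 and 6. With array weights the median was -0.057. Leaving out 1 array changed the sign of 20 of 32 members and moved 30 by over 1.5 times. The members' median correlation was 0.25 without a filter (39 probes) and 0.16 with median scaling, where that over all pairs was 0.17. The cause was not tested. Deviations of same-numbered arrays from their group means correlated at 0.10, 0.089, -0.31 and 0.011 for replicates 1 to 4. Only for knockout 2 was the wild-type array of the same number the closest. Such correlations cannot show whether the arrays were paired in the design.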

Other observations

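Among 11 mitochondrial import genes measured, 0 passed over all probes (limma) and 2 had an unadjusted p under 0.05, where 11.5% of all probes did. Timm9, a chaperone of the space between the mitochondrial membranes, had means of 10.37 ± 0.068 in the knockout and 10.09 ± 0.091 in the wild type (SD, n = 4 and 5; difference 0.28, limma, adjusted p = 0.172). Timm21, of the inner-membrane import channel, had means of 7.76 ± 0.13 and 7.52 ± 0.058 in the same order (difference 0.24, limma, adjusted p = 0.226). For both genes every knockout array was above every wild-type array, as for 1.91% of all probes. The median over the 11 genes was 0.038, and members correlated with them at a median of 0.37.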
